A study of Mus musculus with 18 samples.

Results

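NRF2 is the transcription factor of the antioxidant response, and the mouse gene Nfe2l2 encodes it. Nfe2l2 and the well-known antioxidant target genes Hmox1, Nqo1, Gclm, Gclc, Slc7a11, Txnrd1, Srxn1, Gsr and Prdx1 were taken by gene symbol from the deposited RNA-seq table. All 10 were found among its 21831 genes, and all 10 passed the filter on low counts that left 13409 genes for testing. Their values were compared over 18 libraries of cultured mouse peritoneal macrophages in 4 groups.

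The groups crossed genotype with an added compound. The dMye_PCN group (6 libraries) came from mice labelled PXRΔMyeLDLR-/-, which lack the nuclear receptor PXR in myeloid cells, and its cells were kept for 12 h with 20 µM pregnenolone 16α-carbonitrile (PCN), which activates mouse PXR. The dMye_DMSO group (6 libraries) had the same genotype and received the solvent dimethyl sulfoxide. The FF_PCN group (3 libraries) and the FF_DMSO group (3 libraries) came from mice labelled PXRF/FLDLR-/-, with floxed and intact PXR alleles, and received PCN and solvent. By these labels every group, controls included, also lacked the LDL receptor. The mice were 6 weeks old, of the C57BL/6 strain, and carried macrophages drawn into the abdominal cavity by 1 mL of 3% thioglycollate given 3 days earlier. The cells had 4 h to attach before treatment. The labels name no Cre driver and do not say whether libraries came from separate or pooled animals, so p-values cover only library-to-library spread, part or all of which may be technical.

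In resting cells the adaptor KEAP1 ties NRF2 to a CUL3 ubiquitin ligase and the protein is degraded. Oxidants and electrophiles modify KEAP1, NRF2 accumulates, pairs with a small MAF protein and binds antioxidant response elements near its targets, while BACH1 competes for many of the same sites. The targets make glutathione, import the cystine needed for it, reduce thioredoxin and peroxides, and break down heme. In macrophages the pathway is known for limiting oxidative stress and inflammatory gene expression. Much of its control acts on NRF2 protein, which RNA levels do not measure.

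Promoters of 4 members are shown because they hold letters of interest for the genes that follow. Windows from 250 bases before to 50 bases after the annotated start were taken from RefSeq (GRCm38.p6). They matched 7 of the 10 members, in 9 windows, and Hmox1, Gclc and Gsr had none. They were searched on both strands for TGACNNNGC, the core of the antioxidant response element, and for TGATGNAA, the core of the amino acid response element bound by ATF4. The second motif was chosen after the values of Slc7a11 had been seen. The lines run 5′ to 3′ in the direction of the gene over the 250 bases before the start, and capitals mark either motif or its reverse complement. They are Slc7a11 at chr3:50443614-50443863 (minus strand), Nfe2l2 at chr2:75704664-75704913 (minus strand), Gclm at chr3:122245307-122245556 (plus strand) and Prdx1 at chr4:116685349-116685598 (plus strand).
Slc7a11: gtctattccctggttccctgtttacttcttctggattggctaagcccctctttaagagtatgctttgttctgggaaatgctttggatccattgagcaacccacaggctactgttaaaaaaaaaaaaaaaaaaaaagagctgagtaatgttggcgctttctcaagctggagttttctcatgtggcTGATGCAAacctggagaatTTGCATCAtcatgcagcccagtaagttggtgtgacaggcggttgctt
Nfe2l2: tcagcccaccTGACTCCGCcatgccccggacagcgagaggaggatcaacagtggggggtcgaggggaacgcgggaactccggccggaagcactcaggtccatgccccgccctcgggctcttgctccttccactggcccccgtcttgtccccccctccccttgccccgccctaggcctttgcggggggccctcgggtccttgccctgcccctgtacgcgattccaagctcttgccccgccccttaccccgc
Gclm: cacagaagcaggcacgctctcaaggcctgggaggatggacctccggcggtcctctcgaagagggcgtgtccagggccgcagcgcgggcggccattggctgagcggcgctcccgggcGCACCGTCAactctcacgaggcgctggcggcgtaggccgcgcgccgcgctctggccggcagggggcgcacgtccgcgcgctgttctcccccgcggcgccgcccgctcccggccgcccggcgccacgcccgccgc
Prdx1: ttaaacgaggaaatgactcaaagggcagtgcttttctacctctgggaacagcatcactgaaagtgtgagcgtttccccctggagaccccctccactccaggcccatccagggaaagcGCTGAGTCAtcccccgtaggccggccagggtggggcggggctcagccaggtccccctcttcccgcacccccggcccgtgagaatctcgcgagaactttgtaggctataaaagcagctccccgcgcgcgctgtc
TGACNNNGC occurred in a window of 5 of the 7 members that had one, namely Nfe2l2, Gclm, Prdx1, Srxn1 (after the start, at base 28) and Txnrd1 (1 of its 3 windows). It occurs in 12.4% of all 32851 windows of 300 bases in the table. The looser TGANNNNGC, which includes every match to TGACNNNGC, occurs in 41.3% of them and so says little about a gene. TGATGNAA lay in the Slc7a11 window 2 times, at -66 on the plus strand and at -47 on the minus strand relative to the gene, and in no other member window. It occurs in 3.97% of all windows, and its match at -47 overlaps a match to TGANNNNGC. These are letter matches in short windows, and no factor binding was measured.

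Library totals ran from 21993697 to 30228017 expected counts, so 1 CPM (a count scaled to the library total) stood for 22 to 30.2 counts, and the members had between 190 and 34714 counts in a library. Nr1i2, the gene of PXR, had 5 counts in all over the 12 dMye libraries and 3 over the 6 FF libraries. PXR RNA was thus almost undetected in both genotypes, FF included, and the deletion could not be checked. The Y-linked gene Ddx3y had 0 to 11 counts in dMye libraries and 1202 to 1613 in FF libraries, so sex and genotype cannot be told apart. Macrophage markers were high in every library, with the sum of 7 genes at 6070 to 10688 CPM. Of the neutrophil markers, 1 of 4 was at 0 in every group. The sum of 6 mesothelial and fibroblast markers was 468 to 550 CPM in dMye_PCN, 477 to 603 in dMye_DMSO, 106 to 119 in FF_PCN and 132 to 136 in FF_DMSO, and all 6 were called higher in dMye under both agents. In bulk RNA, fewer cells of a type and less RNA per cell cannot be told apart.

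Levels differed widely between the members. On the scale of CPM per kilobase of merged exons (GENCODE M21), the FF_DMSO order began with Prdx1, a peroxiredoxin that removes hydrogen peroxide, at 377 ± 21.5, followed by Hmox1 at 156 ± 3.6, Nfe2l2 at 73.2 ± 1.05 and Srxn1 at 48.8 ± 1.59 (SD, n = 3). Gsr at 37.9 ± 0.996 and Txnrd1 at 35.4 ± 1.7 came next, and their libraries overlapped. Gclc at 22.6 ± 0.872 and Gclm at 9.47 ± 0.155 followed. Nqo1 at 6.1 ± 0.465 and Slc7a11 at 5.44 ± 0.233 were the lowest, and their libraries overlapped. The dMye_PCN and dMye_DMSO groups had the same order of means, with overlap between the Gclm and Nqo1 libraries. In FF_PCN, Txnrd1 (39 ± 1.79) stood above Gsr (38.4 ± 1.37), and Slc7a11 (8.05 ± 0.328) stood above Nqo1 (5.1 ± 0.228), with no overlap between the libraries of the last pair. Merged exons count every annotated isoform, which lowers per-length levels of genes with long minor isoforms such as Slc7a11, with 13922 merged bases.

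Libraries of a group lay close together for most members. The coefficient of variation ran from 2.55% (Gclc) to 9.95% (Slc7a11) in dMye_PCN, from 2.93% (Gsr) to 15.9% (Nqo1) in dMye_DMSO, from 0.374% (Nfe2l2) to 4.64% (Hmox1) in FF_PCN and from 1.44% (Nfe2l2) to 7.62% (Nqo1) in FF_DMSO.

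**Figure D1:**
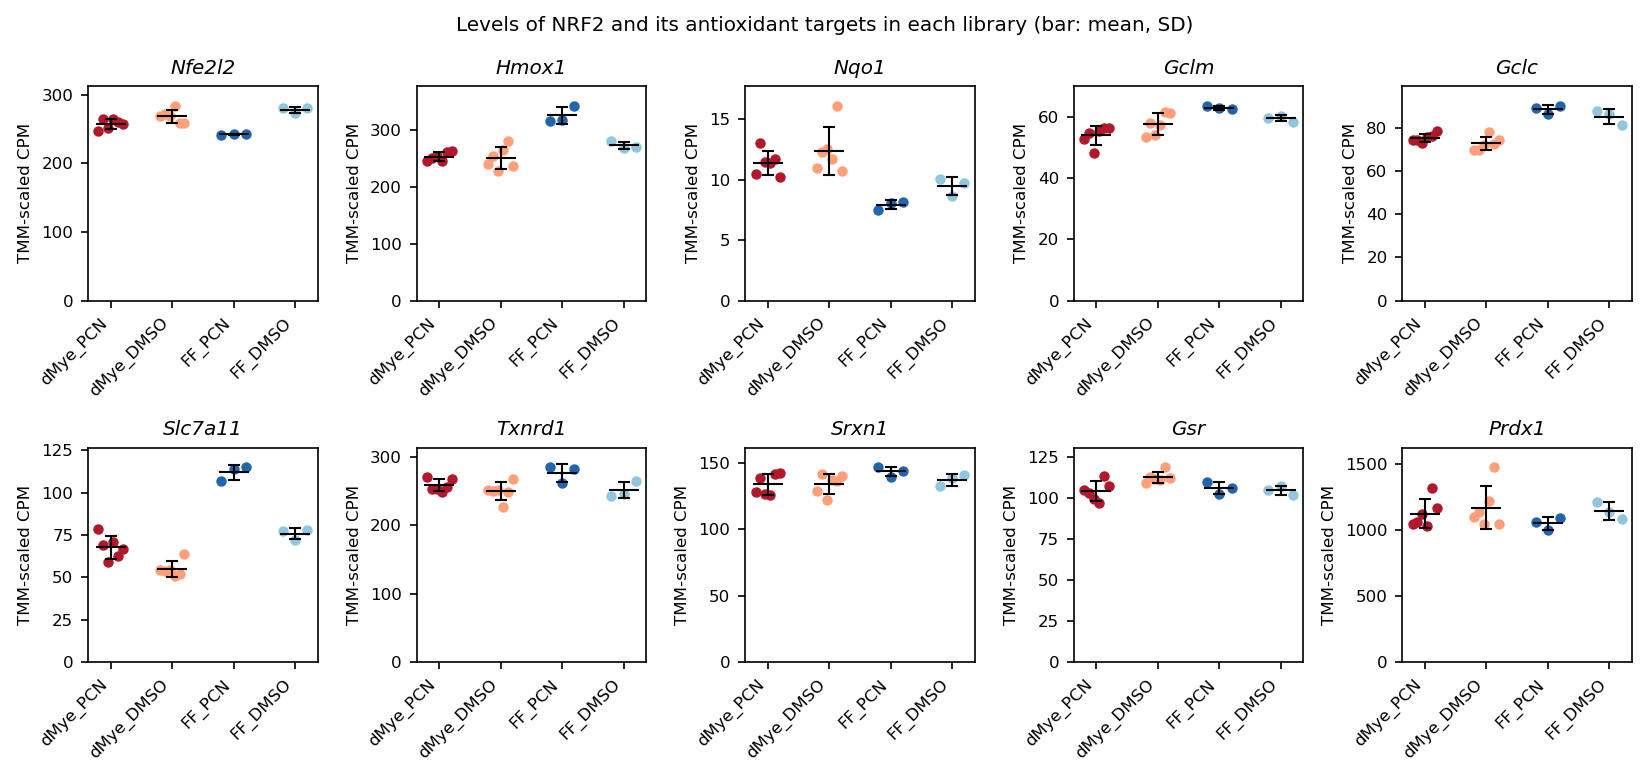
Levels of the 10 members in TMM-scaled CPM (vertical axes, starting at 0) in each library of the 4 groups (horizontal axes), with bars for the mean and SD. Slc7a11 has its 3 FF_PCN libraries between 107 and 115, above every library of the other groups, and Nqo1 has all 6 FF libraries below the dMye libraries.

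The first comparison asked how PCN changed these genes in macrophages with floxed and intact PXR alleles. In FF cells PCN raised Slc7a11 and Hmox1 and lowered Nfe2l2, and the other 7 members did not pass the test. Thus 3 of 10 members were called at a Benjamini-Hochberg adjusted p under 0.05 (edgeR quasi-likelihood test over all genes), where 13.8% of all genes were called, 6.82% higher and 6.98% lower. Libraries of FF_PCN and FF_DMSO did not overlap for 5 members, 3 higher and 2 lower with PCN, against 33.8% of all genes, 17.8% higher and 15.9% lower. The median log2 fold change was 0.06 over the members and 0.01 over all genes.

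Slc7a11 (chromosome 3, 49892526 to 50443614, minus strand, GRCm38) encodes the cystine subunit of the cystine-glutamate exchanger and so feeds glutathione synthesis. It had 107, 114 and 115 CPM (TMM-scaled, as are all levels of single genes below) in FF_PCN libraries, against 77.3, 72.0 and 78.0 CPM in FF_DMSO libraries. Every PCN library stood above every solvent library. The fold was 1.48, a log2 fold change of 0.56 ± 0.09 (SE) with an edgeR adjusted p of 9.7e-05. Hmox1 (chromosome 8, 75093621 to 75100589, plus strand) encodes heme oxygenase-1, which splits heme into biliverdin, iron and carbon monoxide. It had 316, 317 and 343 CPM in FF_PCN libraries, against 280, 269 and 270 CPM in FF_DMSO libraries. These libraries did not overlap either, and the log2 fold change was 0.25 ± 0.06 (SE), with an edgeR adjusted p of 0.00864. The Hmox1 call rested on the FF_PCN library with 343 CPM, without which the log2 fold change was 0.20 with an edgeR adjusted p of 0.054.

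Nfe2l2 (chromosome 2, 75675513 to 75704641, minus strand) moved the other way. It had 241, 243 and 243 CPM in FF_PCN libraries, against 280, 273 and 280 CPM in FF_DMSO libraries. All PCN libraries lay below all solvent libraries, with a log2 fold change of -0.20 ± 0.05 (SE) and an edgeR adjusted p of 0.00462. Of the genes for glutathione synthesis, Gclm, the modifier subunit of glutamate-cysteine ligase, had 62.5 to 63.8 CPM in FF_PCN and 58.5 to 60.4 CPM in FF_DMSO. Gclc, the catalytic subunit of the same enzyme, had 86.2 to 90.3 CPM in FF_PCN and 81.4 to 87.6 CPM in FF_DMSO. Their edgeR adjusted p values were 0.48 and 0.566, so a change of either subunit did not pass the test.

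The reductases and peroxide enzymes showed no called change in FF cells. Txnrd1, thioredoxin reductase 1, averaged 276 ± 12.7 CPM in FF_PCN and 251 ± 12 CPM in FF_DMSO (SD, n = 3 each), with a log2 fold change of 0.14 ± 0.06 (SE) and an edgeR adjusted p of 0.113. Gsr, glutathione reductase, averaged 106 ± 3.78 CPM and 104 ± 2.74 CPM in the same groups. Srxn1, which restores overoxidised peroxiredoxins, averaged 144 ± 3.68 CPM in FF_PCN and 138 ± 4.5 CPM in FF_DMSO. Prdx1 averaged 1052 ± 48.5 CPM in FF_PCN and 1147 ± 65.4 CPM in FF_DMSO. Nqo1, a quinone reductase often used as a readout of NRF2, had 7.51, 8.10 and 8.16 CPM in FF_PCN and 10.03, 8.66 and 9.74 CPM in FF_DMSO. Its libraries did not overlap, but at this low level the log2 fold change of -0.26 ± 0.13 (SE) had an edgeR adjusted p of 0.23.

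Marker genes moved with PCN in the same FF libraries. The sum of 4 B cell markers was 6.07 to 8.76 CPM in FF_PCN and 13.1 to 16.5 CPM in FF_DMSO, none of them at 0, and 3 of the 4 were called lower. Of the 7 macrophage markers 5 were called lower and none higher, with a sum of 7069 to 7554 CPM in FF_PCN and 9980 to 10688 CPM in FF_DMSO. Within that sum Lyz2 averaged 4505 ± 310 CPM in FF_PCN and 7211 ± 314 CPM in FF_DMSO. Cd68 averaged 2539 ± 64.4 and 2570 ± 46.9 CPM in those groups, and Cd14 averaged 44.6 ± 1.27 and 40.1 ± 2.32 CPM. The part of the B cell and macrophage markers in the member changes was not tested.

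In dMye cells PCN raised Slc7a11 and no other member passed the test. The count of 1 in 10 stands beside 2.08% of all genes called in this comparison, 0.94% higher and 1.14% lower. Slc7a11 ran from a lowest 59.1 through a median of 68.1 to a highest 78.3 CPM in dMye_PCN libraries, against 51.0, 53.9 and 63.8 CPM in dMye_DMSO libraries. The groups overlapped through 1 solvent library at 63.8 CPM, the next of which stood at 54.6. The fold was 1.24, a log2 fold change of 0.30 ± 0.06 (SE), with an edgeR adjusted p of 0.0112. No member had libraries that separated the agents in dMye cells, where 2.27% of all genes did, 1.07% higher and 1.19% lower.

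Hmox1 had a lowest of 244, a median of 252 and a highest of 263 CPM in dMye_PCN libraries, against 228, 246 and 280 CPM in dMye_DMSO libraries. The PCN libraries lay inside the range of the solvent libraries, and the log2 fold change was 0.01 ± 0.04 (SE) with an edgeR adjusted p of 0.921. Nfe2l2 had a lowest of 248, a median of 259 and a highest of 264 CPM in dMye_PCN libraries, against 259, 269 and 284 CPM in dMye_DMSO libraries, with a log2 fold change of -0.06 ± 0.03 (SE) and an edgeR adjusted p of 0.384. The remaining members had log2 fold changes between -0.12 (Nqo1) and 0.05 (Gclc and Txnrd1). The median over the members was -0.03, and over all genes it was -0.01.

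**Figure D2:**
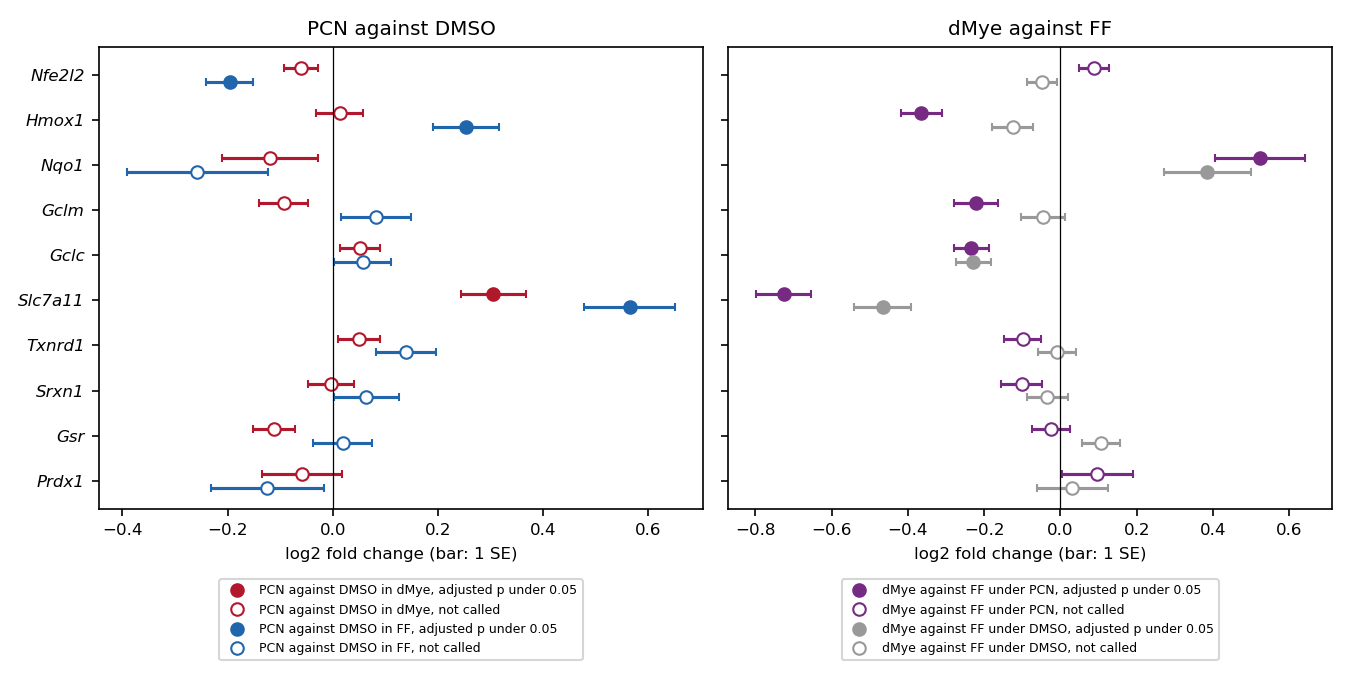
Log2 fold changes of the 10 members (horizontal axes, bars of 1 SE) for PCN against DMSO in dMye and FF cells (left) and for dMye against FF under PCN and under DMSO (right). Filled points have an edgeR adjusted p under 0.05. Slc7a11 is filled in all 4 comparisons, at 0.30 and 0.56 on the left and at -0.73 and -0.47 on the right.

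Whether PCN acted differently in the genotypes was tested as the difference between the effects, dMye minus FF. No member passed, while 1.42% of all genes did, 0.746% with a higher and 0.671% with a lower value. DESeq2 and limma-voom also called 0. At an unadjusted p under 0.05 there were 4 members, but the share of all genes at that threshold was not taken, so this count has no background. The nearest to the threshold was Hmox1, with a PCN effect of 0.01 in dMye and 0.25 in FF, a difference of -0.24 ± 0.08 (log2, SE) and an edgeR adjusted p of 0.134. For Slc7a11 the effects were 0.30 in dMye and 0.56 in FF, a difference of -0.26 ± 0.11 (log2, SE) with an edgeR adjusted p of 0.281. For Nfe2l2 the effects were -0.06 in dMye and -0.20 in FF, a difference of 0.14 ± 0.06 (log2, SE) with an edgeR adjusted p of 0.276. Gclm had effects of -0.09 in dMye and 0.08 in FF, a difference of -0.18 ± 0.08 (log2, SE) with an edgeR adjusted p of 0.364. So a change called in FF and not in dMye is not shown to differ between them.

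The genotypes were also compared under each agent. These comparisons share libraries with the ones above, and sex and the mesothelial and fibroblast markers follow genotype. Other markers differed as well. All 4 B cell markers were called lower in dMye under DMSO, with sums of 3.61 to 5.68 CPM in dMye_DMSO and 13.1 to 16.5 CPM in FF_DMSO, and 1 was under PCN, with sums of 3.71 to 6.51 CPM in dMye_PCN and 6.07 to 8.76 CPM in FF_PCN. Of 4 T cell markers 2 were lower in dMye under DMSO, and 1 was higher and 1 lower under PCN. Of 7 macrophage markers 5 were higher and 1 lower in dMye under PCN, and 2 were higher and 2 lower under DMSO. Their part in the member differences was not tested. Under DMSO, Nqo1 was higher and Slc7a11 and Gclc were lower in dMye, so 3 of 10 members were called beside 21.8% of all genes (13.9% higher and 7.85% lower). Under PCN, Nqo1 was higher and Slc7a11, Hmox1, Gclc and Gclm were lower in dMye, so 5 of 10 were called beside 27.6% of all genes (16.2% higher and 11.4% lower). The median log2 fold change of the members was -0.04 under DMSO and -0.10 under PCN, with 0.02 and 0.00 over all genes. Under DMSO, libraries of the genotypes did not overlap for 2 members higher and 2 lower in dMye, beside 15% and 9.74% of all genes and 24.7% in either direction. Under PCN they did not overlap for 2 members higher and 4 lower, beside 16.1% and 11.5% of all genes and 27.5% in either direction.

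Slc7a11 was lower in dMye at either agent. With PCN the dMye libraries reached 78.3 CPM at most and the FF libraries 107 at least, a log2 fold change of -0.73 ± 0.07 (SE) with an edgeR adjusted p of 9.44e-08. With DMSO the dMye libraries reached 63.8 CPM at most and the FF libraries 72.0 at least, a log2 fold change of -0.47 ± 0.07 (SE) with an edgeR adjusted p of 6.24e-05. The dMye_PCN libraries, with a median of 68.1 CPM, thus overlapped the FF_DMSO libraries, which had 72.0 to 78.0. Gclc (chromosome 9, 77754535 to 77794485, plus strand) had a lowest of 72.9, a median of 75.0 and a highest of 78.5 CPM in dMye_PCN libraries, and FF_PCN libraries had 89.1, 86.2 and 90.3 CPM. In dMye_DMSO libraries it had 69.8, 72.0 and 78.0 CPM, and in FF_DMSO libraries 87.6, 86.5 and 81.4 CPM. The genotypes separated under both agents, with log2 fold changes of -0.23 each and edgeR adjusted p values of 0.000571 under PCN and 0.000849 under DMSO.

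Gclm (chromosome 3, 122245557 to 122270732, plus strand) differed in the PCN groups. It had a lowest of 48.3, a median of 55.2 and a highest of 56.6 CPM in dMye_PCN libraries, against 63.8, 62.8 and 62.5 CPM in FF_PCN libraries, a log2 fold change of -0.22 ± 0.06 (SE) with an edgeR adjusted p of 0.00553. Under DMSO its log2 fold change was -0.05 with an edgeR adjusted p of 0.604. Hmox1 had at most 263 CPM in dMye_PCN and at least 316 in FF_PCN, a log2 fold change of -0.36 ± 0.05 (SE) with an edgeR adjusted p of 2e-05. Under DMSO its log2 fold change of -0.12 ± 0.05 (SE) had an edgeR adjusted p of 0.107, which fell under the threshold under another scaling and without single libraries.

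Nqo1 (chromosome 8, 107388225 to 107403206, minus strand) was the only member called higher in dMye. It had a lowest of 10.2, a median of 11.4 and a highest of 13 CPM in dMye_PCN libraries, against 7.51, 8.10 and 8.16 CPM in FF_PCN libraries. In dMye_DMSO libraries it had 10.7, 12.0 and 16.1 CPM, against 10.03, 8.66 and 9.74 CPM in FF_DMSO libraries. The genotypes did not overlap under either agent, with log2 fold changes of 0.52 ± 0.12 (SE; edgeR adjusted p 0.0018) under PCN and 0.38 ± 0.11 (SE; edgeR adjusted p 0.0182) under DMSO. The call under DMSO rested on the FF_DMSO library with 8.66 CPM, without which the log2 fold change was 0.32 with an edgeR adjusted p of 0.111. Within dMye_DMSO, the library highest for Nqo1 had the lowest sum of mesothelial and fibroblast markers, 477 CPM. Within dMye_PCN, the library highest for Nqo1 (13 CPM) had the highest sum, 550 CPM, and the lowest (10.2 CPM) had the lowest sum, 468 CPM. The part of those markers in the Nqo1 difference was not tested.

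**Figure D3:**
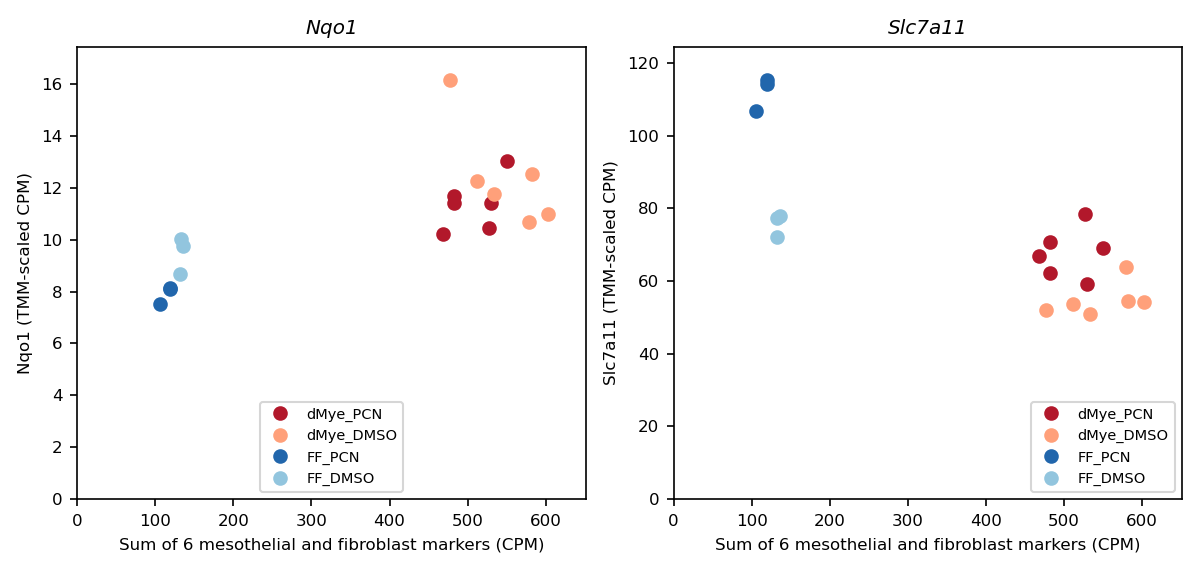
Nqo1 (left) and Slc7a11 (right) in TMM-scaled CPM against the summed CPM (not TMM-scaled) of 6 mesothelial and fibroblast markers, 1 point for each of the 18 libraries, coloured by group. The genotypes lie apart on the marker axis, at 468 to 603 CPM in dMye and 106 to 136 CPM in FF.

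The remaining members showed no called genotype difference. Nfe2l2 itself had a log2 fold change of 0.09 ± 0.04 (SE) under PCN and of -0.05 ± 0.04 (SE) under DMSO, with edgeR adjusted p values of 0.104 and 0.393. Gsr libraries lay between 109 and 119 CPM in dMye_DMSO and between 102 and 107 CPM in FF_DMSO, without overlap, yet the log2 fold change of 0.11 ± 0.05 (SE) had an edgeR adjusted p of 0.128. Txnrd1, Srxn1 and Prdx1 had log2 fold changes between -0.10 and 0.10 in both comparisons.

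Genes that control NRF2 formed a list of 14, all tested. In FF cells PCN raised 6 of them and lowered none, with a median log2 fold change of 0.22. Over all genes 6.82% were called higher and 6.98% lower, with a median of 0.01. Mafg and Mafk, small MAF partners of NRF2, averaged 249 ± 12.9 and 67.3 ± 1.9 CPM in FF_PCN and 188 ± 9.48 and 49.9 ± 2.54 CPM in FF_DMSO (SD, n = 3). Their log2 fold changes were 0.40 ± 0.07 and 0.43 ± 0.08 (SE), with edgeR adjusted p values of 0.000227 and 0.000736. Sqstm1, the autophagy adaptor p62 that binds KEAP1, averaged 2095 ± 52.4 CPM in FF_PCN and 1725 ± 45.7 CPM in FF_DMSO, with an edgeR adjusted p of 0.000761. Fbxw11, a substrate receptor of another ubiquitin ligase, was called with a log2 fold change of 0.21 (edgeR adjusted p 0.0155), a call lost without FF_PCN library 2 or 3 or FF_DMSO library 1 or 3. The list count fell to between 3 and 4 when 1 library was left out. Keap1 averaged 46.5 ± 2.08 CPM in FF_PCN and 49.9 ± 3.19 CPM in FF_DMSO, and Bach1 averaged 170 ± 7.23 and 180 ± 5.32 CPM, neither called. In dMye cells edgeR called 0 of 14, as did DESeq2 and limma-voom, and the list median was 0.06. Over all genes edgeR called 2.08% in dMye cells. At an unadjusted p under 0.05 there were 4 of 14, and the share of all genes at that threshold was not taken.

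Of 21 tested further NRF2 targets, PCN raised none and lowered 4 in FF cells, with a list median of -0.10, where 6.98% of all genes were called lower. These were Idh1, G6pdx, Pgd and Tkt, enzymes of NADPH supply and the pentose phosphate pathway. Idh1 averaged 64.3 ± 0.265 CPM in FF_PCN and 112 ± 4.7 CPM in FF_DMSO (SD, n = 3), a log2 fold change of -0.80 ± 0.09 (SE) with an edgeR adjusted p of 2.39e-06. G6pdx, the first enzyme of the pathway, averaged 107 ± 5.07 CPM in FF_PCN and 144 ± 1.86 CPM in FF_DMSO, with an edgeR adjusted p of 4.9e-05. Pgd averaged 233 ± 4.59 CPM in FF_PCN and 318 ± 8.42 CPM in FF_DMSO, with an edgeR adjusted p of 0.000527. Tkt was called with an edgeR adjusted p of 0.0155, which was 0.0959 without the first FF_DMSO library. In dMye cells PCN lowered 2 of the 21, Idh1 and Pgd, beside 1.14% of all genes, and the count was 1 to 5 without single libraries. Idh1 averaged 89.5 ± 8.16 CPM in dMye_PCN and 120 ± 12.2 CPM in dMye_DMSO (SD, n = 6), with an edgeR adjusted p of 0.000654, and the Pgd call (edgeR adjusted p 0.0266) was lost without dMye_PCN library 3 or 4. Of the 7 macrophage markers 5 were called lower in the FF libraries too, as given above, and their part in these changes was not tested.

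Other antioxidant enzymes formed a list of 17, of which PCN raised none and lowered 4 in FF cells, again beside 6.98% of all genes called lower, and 2 to 3 without single libraries. Glrx, a glutaredoxin, averaged 4.4 ± 0.403 CPM in FF_PCN and 7.73 ± 0.806 CPM in FF_DMSO, a log2 fold change of -0.81 ± 0.14 (SE) with an edgeR adjusted p of 0.000378. Gpx1, the main cytosolic glutathione peroxidase, averaged 233 ± 5.36 CPM in FF_PCN and 324 ± 15.4 CPM in FF_DMSO, with an edgeR adjusted p of 0.00229. The calls of Gpx3 (0.0316) and Prdx4 (0.0443), given as edgeR adjusted p values, were lost when any 1 FF_PCN library was left out for Gpx3, or FF_PCN library 1 or 2 for Prdx4, without FF_DMSO library 1 for both, library 2 for Prdx4 or library 3 for Gpx3, and for both under limma-voom. In dMye cells Gpx1 alone was called, beside 1.14% of all genes called lower. Gpx1 averaged 299 ± 20.5 CPM in dMye_PCN and 362 ± 52.5 CPM in dMye_DMSO, with an edgeR adjusted p of 0.0414. That value reached 0.104 without dMye_PCN library 3 and missed the threshold without 6 other libraries.

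Slc7a11 is also a target of ATF4, the factor of the amino acid and stress response. A list of 10 ATF4-related genes, Atf4 included, was therefore set beside it. The list was chosen with earlier results of these data known, and the part of ATF4 in the Slc7a11 change was not tested. In FF cells PCN raised 4 and lowered none, with a list median of 0.26, where 6.82% of all genes were called higher. Slc3a2, the heavy chain that pairs with the Slc7a11 protein in the exchanger, averaged 746 ± 8.48 CPM in FF_PCN and 594 ± 4.01 CPM in FF_DMSO (SD, n = 3), with a log2 fold change of 0.33 ± 0.05 (SE) and an edgeR adjusted p of 0.000142. Atf3, a stress-induced factor, averaged 702 ± 22.6 CPM in FF_PCN and 491 ± 13.4 CPM in FF_DMSO, with an edgeR adjusted p of 2.39e-06. Ddit3, which encodes CHOP, averaged 345 ± 6.34 and 243 ± 19.1 CPM in those groups, and Trib3, a pseudokinase, averaged 281 ± 6.93 and 219 ± 6.03 CPM. Atf4 RNA had a log2 fold change of 0.19 ± 0.07 (SE) with an edgeR adjusted p of 0.0576. Sesn2, Chac1, Ddit4 and Vldlr were not called either, with log2 fold changes of 0.19, 0.14, 0.21 and 0.31. Their edgeR adjusted p values were 0.0547, 0.424, 0.547 and 0.453. Asns, also not called, averaged 186 ± 5.51 CPM in FF_PCN and 192 ± 3.43 CPM in FF_DMSO.

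In dMye cells PCN raised 2 of the 10 ATF4-related genes, where 0.94% of all genes were called higher. The 2 were Atf3 (0.20 ± 0.04, log2 and SE, edgeR adjusted p 0.0116) and Ddit3 (0.22 ± 0.05, log2 and SE, edgeR adjusted p 0.0357). The Atf3 call was lost without both dMye_DMSO libraries 5 and 6 (edgeR adjusted p 0.0504), and the Ddit3 call without several single libraries (edgeR adjusted p up to 0.109). Slc3a2 averaged 582 ± 20.9 CPM in dMye_PCN and 556 ± 30.1 CPM in dMye_DMSO (SD, n = 6), with an edgeR adjusted p of 0.398. Chac1 had the lowest log2 fold change of the list, -0.22, with an edgeR adjusted p of 0.11. The difference between the PCN effects passed the test for 3 of the 10, each smaller in dMye. Over all genes 1.42% passed, 0.746% with a higher and 0.671% with a lower value. The edgeR adjusted p values were 0.0226 for Atf3, 0.0415 for Slc3a2 and 0.0475 for Trib3. The Atf3 call was lost without FF_PCN library 2 or 3 or FF_DMSO library 1 or 3 (edgeR adjusted p up to 0.0958). The calls of Slc3a2 and Trib3 were lost when any 1 FF library, or any of several dMye libraries, was left out (edgeR adjusted p up to 0.106 and 0.144).

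**Figure D4:**
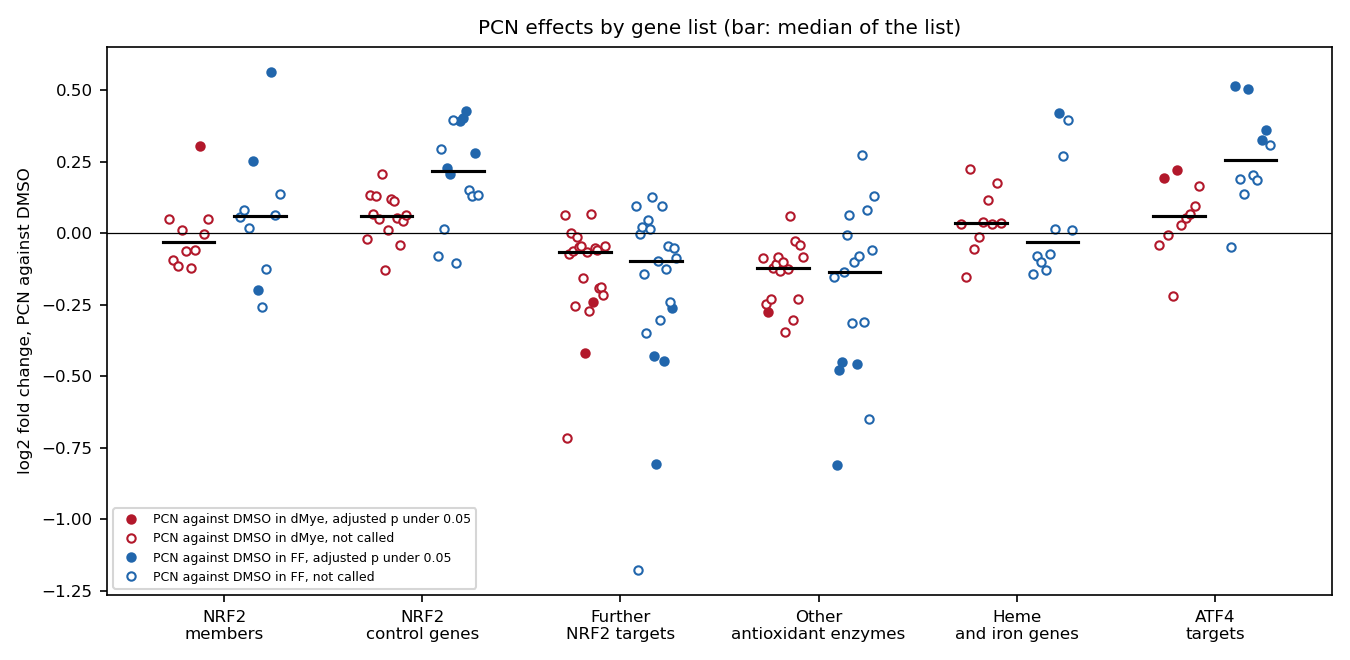
Log2 fold changes for PCN against DMSO (vertical axis) of each tested gene in 6 lists, in dMye cells (red) and FF cells (blue), with a bar for the list median and filled points for an edgeR adjusted p under 0.05. In FF cells the medians of the NRF2 control list (0.22) and the ATF4 list (0.26) lie above 0, and that of the further NRF2 targets (-0.10) lies below.

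Between genotypes the lists did not move one way. Over all genes 16.2% were called higher and 11.4% lower in dMye under PCN, and 13.9% and 7.85% under DMSO, so several of the list counts below are near the background. Under PCN 8 of the 14 control genes were lower in dMye and none higher, among them Mafg, Mafk, Cul3 and Bach2 with log2 fold changes from -0.64 (Bach2) to -0.29, and under DMSO 3 were lower and 1 higher. Without single libraries the count of lower control genes was 4 to 8 under PCN and 1 to 3 under DMSO. Of the 21 further targets 5 were higher and 2 lower in dMye under PCN, and 4 higher and 3 lower under DMSO. Without single libraries these counts were 5 to 9 and 0 to 2 under PCN, and 3 to 5 and 1 to 4 under DMSO. Ephx1, an epoxide hydrolase, averaged 16.7 ± 1.15 CPM in dMye_PCN and 8.38 ± 1.59 CPM in FF_PCN, and 19.9 ± 1.9 CPM in dMye_DMSO and 10.6 ± 0.42 CPM in FF_DMSO. Me1, malic enzyme, averaged 8.07 ± 0.755 CPM in dMye_PCN and 3.32 ± 0.642 CPM in FF_PCN, and 8.42 ± 0.901 CPM in dMye_DMSO and 3.53 ± 1.15 CPM in FF_DMSO. Of the 17 other antioxidant enzymes 6 were higher and none lower in dMye under PCN, and 3 were higher and 1 lower under DMSO, with Gpx3 and Sod3, both extracellular enzymes, higher under both agents. Gpx3 averaged 13.1 ± 1.47 CPM in dMye_PCN and 5.49 ± 0.114 CPM in FF_PCN. Without single libraries 4 to 7 were higher under PCN, and 0 to 1 were lower under DMSO. Sod3 was low, at 2.71 ± 0.998 CPM in dMye_PCN and 0.821 ± 0.465 CPM in FF_PCN. Under DMSO it averaged 3.18 ± 0.837 CPM in dMye and 1.29 ± 0.473 CPM in FF. The Sod3 call under DMSO was lost without FF_DMSO library 2 (edgeR adjusted p 0.0855). Of the 10 ATF4-related genes 4 were higher and 1 lower in dMye under DMSO, and 2 higher and 5 lower under PCN. Without single libraries these counts were 3 to 4 and 0 to 2 under DMSO, and 2 and 3 to 5 under PCN. Higher under DMSO were Vldlr (1.84, log2), Ddit4 (0.81), Chac1 (0.47) and Ddit3 (0.25), the last call lost without FF_DMSO library 1 or 3. Lower under PCN were, among others, Atf3 (-0.41), Slc3a2 (-0.36) and Sesn2 (-0.31). The part of the mesothelial and fibroblast markers in these differences was not tested, and sex and genotype cannot be told apart.

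Genes with the most similar pattern were ranked by the Euclidean distance over 3 log2 fold changes, namely PCN in FF, PCN in dMye and dMye against FF under DMSO, from all 18 libraries. Nearest to Slc7a11 were Sfmbt2 (distance 0.058), Dgkh (0.096) and Six6 (0.114). Sfmbt2 had log2 fold changes of 0.51, 0.32 and -0.44 in those comparisons, and Slc7a11 had 0.56, 0.30 and -0.47. Nearest to Nqo1 were Dcxr (0.028), Csrp1 (0.041) and Adgre5 (0.051).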

How the data were processed

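RNA-seq of 18 mouse macrophage libraries was analysed from 1 table. Its values are expected counts per gene (read counts by estimation, often fractional), as the authors deposited them. The genome build was mm10, per the submitters' processing notes, while aligner, quantifier, annotation and strandedness were not given in the sources used here. Of the values, 51.2% were not whole, so counts were rounded. Genes kept by filterByExpr were fitted together in edgeR 4.0.16 (R 4.3.3; quasi-likelihood, robust, TMM scaling, 4 groups, no covariates), with Benjamini-Hochberg adjustment over 13409 genes and a threshold of 0.05. SE is the absolute log2 fold change over the root of its F statistic. Levels of single genes are TMM-scaled CPM, as mean ± SD, and marker sums are CPM without TMM scaling. Replicate numbers name libraries and pair nothing. The members and gene lists were chosen with earlier results of these data known. Named list genes were up to 4 called per list and comparison, by smallest adjusted p. Keap1, Bach1, Slc3a2 and Atf4 were named for their role after their values were seen. Chac1, Ddit4, Vldlr, Sesn2 and Asns were named for PCN to give the uncalled genes of the ATF4 list. Alternatives were other scalings and filters, DESeq2 1.42.0, limma-voom (limma 3.58.1), the compared groups alone, and each library left out. Of 36 replicate pairs, none agreed within counting noise.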

Additional observations from a re-analysis of the deposited data

Results flagged for a closer look

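A library far from the rest of its group was looked for in the dMye groups of 6 libraries, over 20 combinations of member and group, where chance gives about 1 in 20. In dMye_DMSO the library numbered 5 had Nqo1 at 16.1 CPM, with the next at 12.5, a gap of 0.66 of the group's range. The same library had Gsr at 119 CPM, with the next at 113, a gap of 0.633. In dMye_DMSO the library numbered 6 had Slc7a11 at 63.8 CPM, with the next at 54.6, a gap of 0.721. Without library 5 the log2 fold change of Nqo1 between dMye and FF under DMSO was 0.29 with an edgeR adjusted p of 0.036. Without library 6 that of Slc7a11 for PCN in dMye was 0.35 with an edgeR adjusted p of 0.00208.

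Over all genes the PCN effect was called as different between the genotypes, dMye minus FF, for 190 (1.42%). Among the listed genes these were Atf3 (-0.32, log2), Slc11a2 (-0.30), Trib3 (-0.26) and Slc3a2 (-0.26). Their edgeR adjusted p values were 0.0226, 0.0329, 0.0475 and 0.0415. Of 25 alternatives, 4 lost the call of Atf3, 11 that of Slc11a2, 17 that of Trib3 and 15 that of Slc3a2.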

How the results depend on the processing

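Over 910 values of members under alternatives, 902 stayed called in the same direction or stayed uncalled. Some uncalled values changed sign, such as Hmox1 for PCN in dMye (-0.01 to 0.04 without single libraries). Of the calls, 2 were lost, 6 appeared and 0 reversed. Slc7a11 kept its call in all 4 comparisons under every alternative run. Lost were Hmox1 for PCN in FF and Nqo1 for dMye under DMSO, as given with their values, so the members called higher ran from 1 to 2 and from 0 to 1 when single libraries were left out. Hmox1 under DMSO became called with RLE scaling (-0.15, edgeR adjusted p 0.0437), with DESeq2 (-0.15, adjusted p 0.0327), without dMye_DMSO library 4 (0.0377) or 5 (0.0118), and without 5 and 6 (0.0253). With upper-quartile scaling Nfe2l2 was called higher in dMye under PCN (0.14, edgeR adjusted p 0.0113), making 2 members higher. Counts of all genes called moved more. For PCN in FF there were 1851, and 1201 to 1437 without single libraries, the lowest without FF_DMSO library 1. For PCN in dMye there were 279, with 584 by DESeq2, 144 in the 2 groups alone, 179 without dMye_DMSO 5 and 6, and 137 to 371 without single libraries. For the difference there were 190, with 426 by DESeq2 and 42 to 261 without single libraries. The cause was not tested. Upper-quartile scaling moved the share of calls that were higher to 38.2% against 49.4% for PCN in FF, to 31.2% against 45.2% for PCN in dMye, to 76.0% against 64.0% for dMye under DMSO and to 74.8% against 58.8% under PCN. No paired analysis was possible because the labels give no replicate numbers that groups share. The member with the fewest counts in a library was Nqo1 (190), and its SE of 0.13 for PCN in FF was the widest of the members.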

Other observations

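Of 12 listed genes of heme and iron handling, beside Hmox1, 10 were tested. PCN raised 1 in FF cells and lowered none, with a list median of -0.03. Over all genes 6.82% were called higher and 6.98% lower, so the count is near the background. The gene raised was Slc11a2, the iron transporter DMT1, with 155 ± 5.56 CPM in FF_PCN and 116 ± 3.29 CPM in FF_DMSO (SD, n = 3). Its log2 fold change was 0.42 ± 0.06 (SE), with an edgeR adjusted p of 2.99e-05. In dMye cells edgeR called 0 of 10, as did DESeq2 and limma-voom, where edgeR called 2.08% of all genes. At an unadjusted p under 0.05 there was 1 of 10, and the share of all genes at that threshold was not taken. Slc11a2 averaged 130 ± 4.87 CPM in dMye_PCN and 120 ± 6.92 CPM in dMye_DMSO (SD, n = 6). Its effects differed between the genotypes at an edgeR adjusted p of 0.0329, a call lost without some single libraries, with values up to 0.135. Between genotypes 1 was higher and 3 lower in dMye under PCN, and 1 higher and 2 lower under DMSO. Of all genes 16.2% were called higher and 11.4% lower under PCN, and 13.9% and 7.85% under DMSO. Cd163, a hemoglobin scavenger receptor, was higher under PCN (1.29 log2, edgeR adjusted p 0.018), a call lost without FF_PCN library 2 or 3. Its levels were very low, at 0.741 ± 0.189 CPM in dMye_PCN and 0.298 ± 0.116 CPM in FF_PCN. Slc40a1, the iron exporter ferroportin, was higher under DMSO (0.47 log2, edgeR adjusted p 0.00756). Alas1, the first enzyme of heme synthesis, was lower in dMye under both agents, averaging 36.4 ± 1.56 CPM in dMye_PCN and 45.1 ± 3.59 CPM in FF_PCN, and 35.6 ± 3.59 CPM in dMye_DMSO and 49.8 ± 6.81 CPM in FF_DMSO. Its call under PCN was lost without FF_PCN library 1 (edgeR adjusted p 0.0781). Sex follows genotype in these libraries and cannot be told apart from it.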
